A study of Mus musculus with 16 samples.

Results

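The genes described here are the Srsf, Hnrnp and numbered Rbm genes of mouse tibialis anterior, a shin muscle built mainly of fast fibres. They were taken by symbol alone, as every listed gene whose symbol starts with Srsf or Hnrnp or is Rbm followed by a number, with pseudogene symbols left out. This gave 61 of the 12021 listed genes: 10 Srsf, 20 Hnrnp and 31 Rbm genes, all annotated as protein-coding. In 5 of the Rbm genes (Rbm12b1, Rbm12b2, Rbm15b, Rbm4b and Rbm8a) a letter follows the number, and 56 genes remain without them. The rule reads no measured value, although it was proposed with earlier results of these data known.

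SR proteins, encoded by the Srsf genes, bind exonic sequences through RNA recognition motifs and recruit the splicing machinery through a domain rich in arginine and serine, which the SRPK and CLK kinases phosphorylate. The hnRNP proteins coat nascent transcripts and often repress the splice sites that SR proteins promote, and many also act in the stability, transport and translation of messages. Rbm is a naming series for proteins with RNA-binding motifs and not a family of shared function. It holds splicing regulators such as Rbm5, Rbm10, Rbm20, Rbm24, Rbm25 and Rbm39, and also the cold-inducible protein Rbm3, the exon junction protein Rbm8a, the ribosome biogenesis factors Rbm19 and Rbm28 and the m6A methyltransferase cofactors Rbm15 and Rbm15b. The genes are therefore called RNA-binding protein genes here and not splicing factors throughout. In striated muscle, Rbm20 represses exons of titin, and Rbm24 promotes the inclusion of muscle exons.

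Total RNA depleted of ribosomal RNA was sequenced from 16 samples of snap-frozen muscle, from mice with cancer cachexia (the loss of muscle and fat mass in tumour-bearing animals) and from controls. The groups were KPP cachectic and KPP control (C57BL/6J), KPC cachectic and KPC control (strain given as mixed), C26 cachectic and C26 control (CD2F1) and LLC cachectic and LLC control (C57BL/6J), with n = 2 libraries in each of the 8 groups. C26 and LLC are the usual names of a grafted colon carcinoma and of grafted Lewis lung carcinoma, and KPP and KPC are names in use for engineered mice that develop pancreatic tumours; the labels give no alleles, tumour dose, age or sex. KPP and LLC share the strain label C57BL/6J, and otherwise model and strain cannot be told apart. Nothing in the labels says that the 2 samples of a group are separate animals, so the p-values measure only the spread between these samples.

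Depth was 28584279 to 46972882 reads per library. Replicates correlated at 0.964 to 0.993 over all genes. KPC cachectic replicate 2 lay among the control libraries on the first principal component and LLC cachectic replicate 1 lay apart from its replicate, so results that rest on either are given without it as well. All 14 markers of skeletal muscle fibres were listed, and they summed to 136232 to 147927 CPM (reads per 1000000 reads of the library) in C26 cachectic muscle, against 154505 to 156788 in C26 control muscle. In these bulk samples, fewer cells of a type and less RNA per cell cannot be told apart.

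Sequence before a RefSeq start is shown for Rbm38, which fell, and for Rbm5 and Srsf5, which rose, over the 4 models. RefSeq start sites (GRCm38.p6) were available for 52 of the 61 genes, as 66 windows of 250 bases before and 50 bases after a start; Rbm3 is among those without an entry. The 250 bases before the start are printed 5′ to 3′ on the gene's strand, with matches to the motifs searched in capitals: in Rbm5 a TTCNNNGAA match 190 bases and a CCAAT box on the other strand 57 bases before the start, and in Srsf5 3 GC boxes (GGGCGG on either strand). The Rbm38 start lies inside the annotated gene (chr2:173020498-173034734), so its stretch precedes an internal start and not the 5′ end of the gene. The Rbm38 stretch held none of the 9 motifs searched.
Rbm38, chr2:173021652-173021901, plus strand: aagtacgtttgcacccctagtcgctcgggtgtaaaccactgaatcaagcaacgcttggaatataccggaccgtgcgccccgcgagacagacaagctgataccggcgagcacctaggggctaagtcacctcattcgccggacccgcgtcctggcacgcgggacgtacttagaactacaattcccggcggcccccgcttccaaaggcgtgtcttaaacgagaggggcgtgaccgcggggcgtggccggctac
Rbm5, chr9:107771003-107771252, minus strand: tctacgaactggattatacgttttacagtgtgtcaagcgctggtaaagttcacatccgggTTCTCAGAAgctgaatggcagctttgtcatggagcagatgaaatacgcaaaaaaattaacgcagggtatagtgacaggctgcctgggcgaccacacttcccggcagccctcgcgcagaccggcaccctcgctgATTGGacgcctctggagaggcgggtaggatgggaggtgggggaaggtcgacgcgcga
Srsf5, chr12:80945249-80945498, plus strand: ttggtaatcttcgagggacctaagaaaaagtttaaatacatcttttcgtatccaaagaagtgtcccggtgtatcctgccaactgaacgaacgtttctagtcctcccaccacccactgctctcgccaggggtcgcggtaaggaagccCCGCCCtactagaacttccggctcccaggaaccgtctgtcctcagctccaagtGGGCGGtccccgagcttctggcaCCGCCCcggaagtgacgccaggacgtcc

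Across the 66 windows of these genes, the palindrome CTCGCGAG was present in 7 (10.6%), against 0.919% of the 32851 windows of all genes. The same Srsf4 site was counted in more than 1 overlapping window, so the 7 windows hold fewer than 7 sites. Windows of all genes were counted in the same way. The palindrome is shown, in capitals with 11 bases on each side, for the 6 genes that hold it. It was chosen as the motif, among the 9 searched, whose share here exceeded that in all windows by the largest ratio. Relative to a RefSeq start (negative is before it), it began at -196 in Rbm15, -6 in Rbm26 and -184 in Rbm39. In Srsf4 it began at -179 or -181, in Srsf10 at 16 and in Hnrnph1 at 14. The sites of Rbm15, Rbm26, Srsf10 and Hnrnph1 lie inside the annotated genes. Of the 6, Rbm15, Rbm26, Rbm39, Srsf10 and Srsf4 rose in the mean of the 4 models described further on and Hnrnph1 did not pass, beside 60.7% risen of the 61 genes and 27.3% of all listed genes; the call of Srsf4 held in 4 of 16 fits without 1 library.
Rbm15, chr3:107333467-107333496, minus strand: gctctttgtctCTCGCGAGatcggagagag
Rbm26, chr14:105177302-105177331, minus strand: tcgcactcattCTCGCGAGatttaccggca
Rbm39, chr2:156180404-156180433, minus strand: gaggacgcaccCTCGCGAGacttgggtgca
Srsf10, chr4:135856076-135856105, plus strand: gggagccaagtCTCGCGAGaagaggcagtt
Srsf4, chr4:131873447-131873476, plus strand: gccacggcgagCTCGCGAGaggacgtgctg
Hnrnph1, chr11:50376993-50377022, plus strand: ctcagccttccCTCGCGAGgcgccgcacac
The GC box GGGCGG was found in 63.6% of the windows of these genes, against 35.7% of all windows, and CCAAT in 48.5%, against 37.4%; GC content was 63.5% at the median, against 52.7%. TATAAA was found in 12.1% against 13.6%, CACGTG in 10.6% against 7.15%, TTCNNNGAA in 10.6% against 8.3% and the FoxO motif TGTTTAC in 3.03% against 3.65%. The cAMP response element TGACGTCA and the p53 half-site matched 0 of these windows, against 1.79% and 8.36% of all windows. Both strands were searched, matches of different motifs may overlap, and a match describes letters and not a bound site.

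In control muscle, per kilobase of exon, the levels of the RNA-binding protein genes spanned a wide range. The level was highest for Hnrnpa2b1, an abundant hnRNP that binds RNA and travels between nucleus and cytoplasm, at a median of 87.0 RPKM (reads per kilobase of exon and 1000000 reads; range 77.9 to 114 over 8 control libraries). Srsf5, an SR protein, followed at 70.0 RPKM (61.6 to 102). Rbm38, an RNA-binding protein that regulates the stability of target messages and is needed for muscle cell differentiation in culture, stood next at 48.2 RPKM (34.8 to 53.8). Hnrnph1 (46.5 RPKM), Rbm24 (42.9 RPKM), Rbm39 (37.8 RPKM) and Hnrnpa1 (34.0 RPKM) followed, and the ranges of Rbm38, Hnrnph1, Rbm24 and Rbm39 over libraries overlapped. Rbm20 stood at 28.2 RPKM (24.2 to 33.0). The lowest was Rbm12, at 0.907 RPKM (0.664 to 1.21). The median over genes was 14.1 RPKM for Hnrnp, 12.3 RPKM for Srsf and 4.19 RPKM for Rbm genes.

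**Figure D1:**
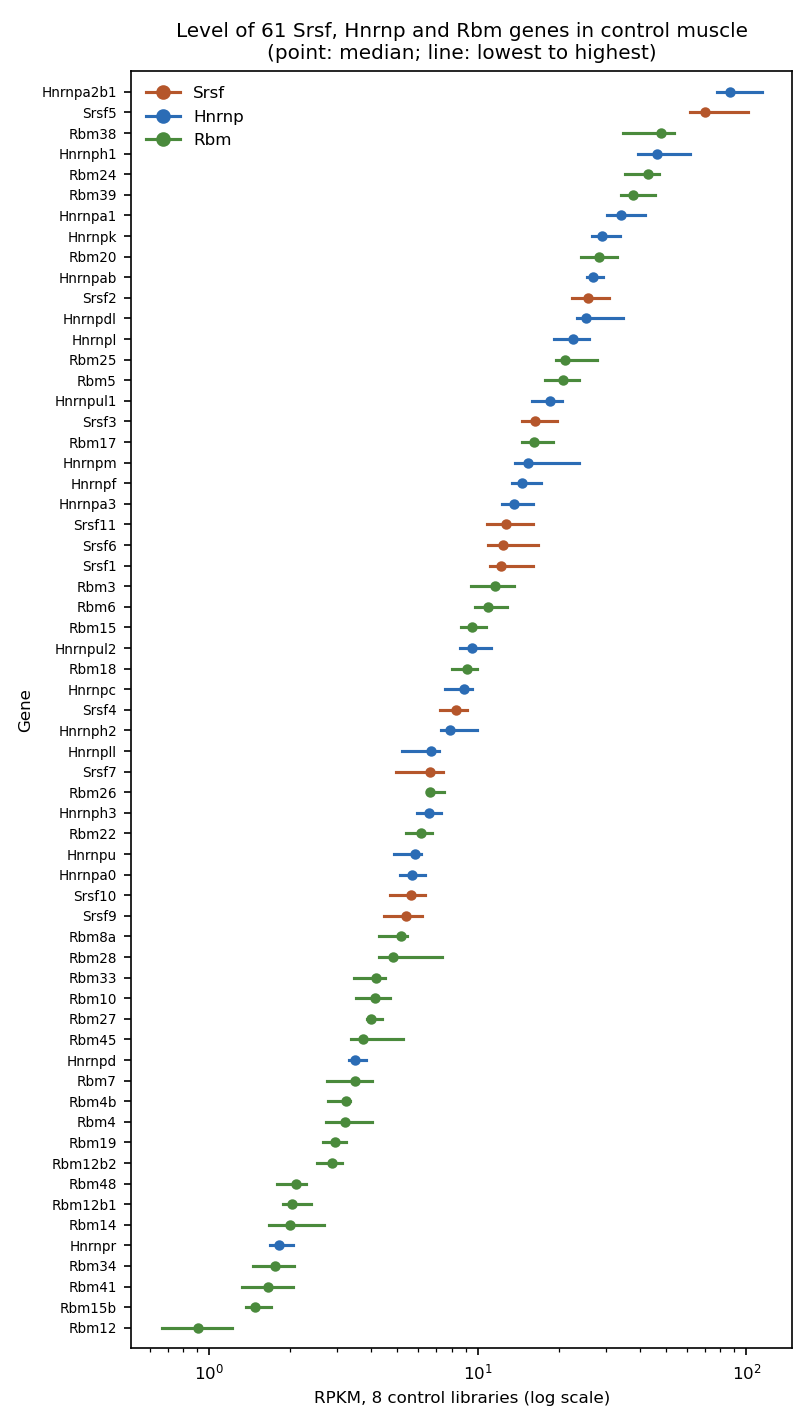
Level of each of the 61 genes in control muscle, in RPKM on a log axis; points are medians of 8 control libraries, lines run from the lowest to the highest, and colours mark Srsf, Hnrnp and Rbm. Medians run from 0.907 for Rbm12 to 87.0 for Hnrnpa2b1, and Rbm38, Rbm24 and Rbm20 lie among the 9 highest.

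Among the 4 control groups, 0 of the 61 genes differed by limma's F test adjusted over all genes, where 4.00% of listed genes were called; 8 had an unadjusted p under 0.05, against 17.7% of all listed genes. The smallest adjusted p was that of Srsf6, an SR protein (0.108). Srsf6 stood at 54.3 and 61.9 CPM in KPP controls, 45.6 and 48.3 in KPC controls, 45.8 and 46.1 in C26 controls and 40.4 and 41.6 in LLC controls. Rbm38 (adjusted p = 0.152) stood at 87.1 and 98.1 in KPP controls, 81.5 and 72.1 in KPC controls, 102 and 111 in C26 controls and 102 and 109 in LLC controls. Its KPC controls were the lowest and did not overlap the other control groups.

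Over the mean of the 4 models, most of the genes rose in cachectic muscle and 1 fell. By limma with Benjamini-Hochberg adjustment over all genes, 37 of the 61 rose at an adjusted p under 0.05 (60.7%), against 27.3% of all listed genes, and 1 fell (Rbm38), against 13.8%. By group, 5 of 10 Srsf, 12 of 20 Hnrnp and 20 of 31 Rbm genes rose. The median log2 change was 0.24 over the 61 genes and 0.10 over all listed genes. Of the 61, 34 had a positive change in all 4 models and 1, Rbm38, a negative change in all 4. The share of all listed genes with the same sign in all 4 models was not counted. Their median change was also positive in each model, at 0.0040 in KPP, 0.012 in KPC, 0.28 in C26 and 0.10 in LLC. Of the 37 risen genes, 28 were positive in all 4, but these genes were called on the mean of the same 4 changes. Values are relative to each library's total, and with libraries centred on their own medians, 27 of the 61 rose and 1 fell, against 19.8% and 18.8% of all genes. Fewer of the 61 genes rose without KPC cachectic replicate 1 or without LLC control replicate 1. Some of the 37 lost their call at other settings or with single libraries left out. The share of all listed genes called in those fits is not given here. Fibroblast markers (9 of 9 listed) summed to 319 to 415 CPM in KPP cachectic muscle against 744 to 829 in KPP controls and to 376 to 558 in LLC cachectic muscle against 1145 to 1275 in LLC controls. Their sums were 607 to 851 in KPC cachectic muscle against 869 to 1041 in KPC controls. In C26 they were 888 to 1124 in cachectic muscle against 1340 to 1746 in controls, although 4 of the 9 had a positive change there. The part of these markers in the changes was not tested. The 21 listed mitochondrially encoded genes took 5.73% to 8.91% of the reads in 7 cachectic libraries and 12.3% in KPC cachectic replicate 2, against 9.10% to 13.0% in the control libraries, and the part of this share in the changes was not tested.

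**Figure D2:**
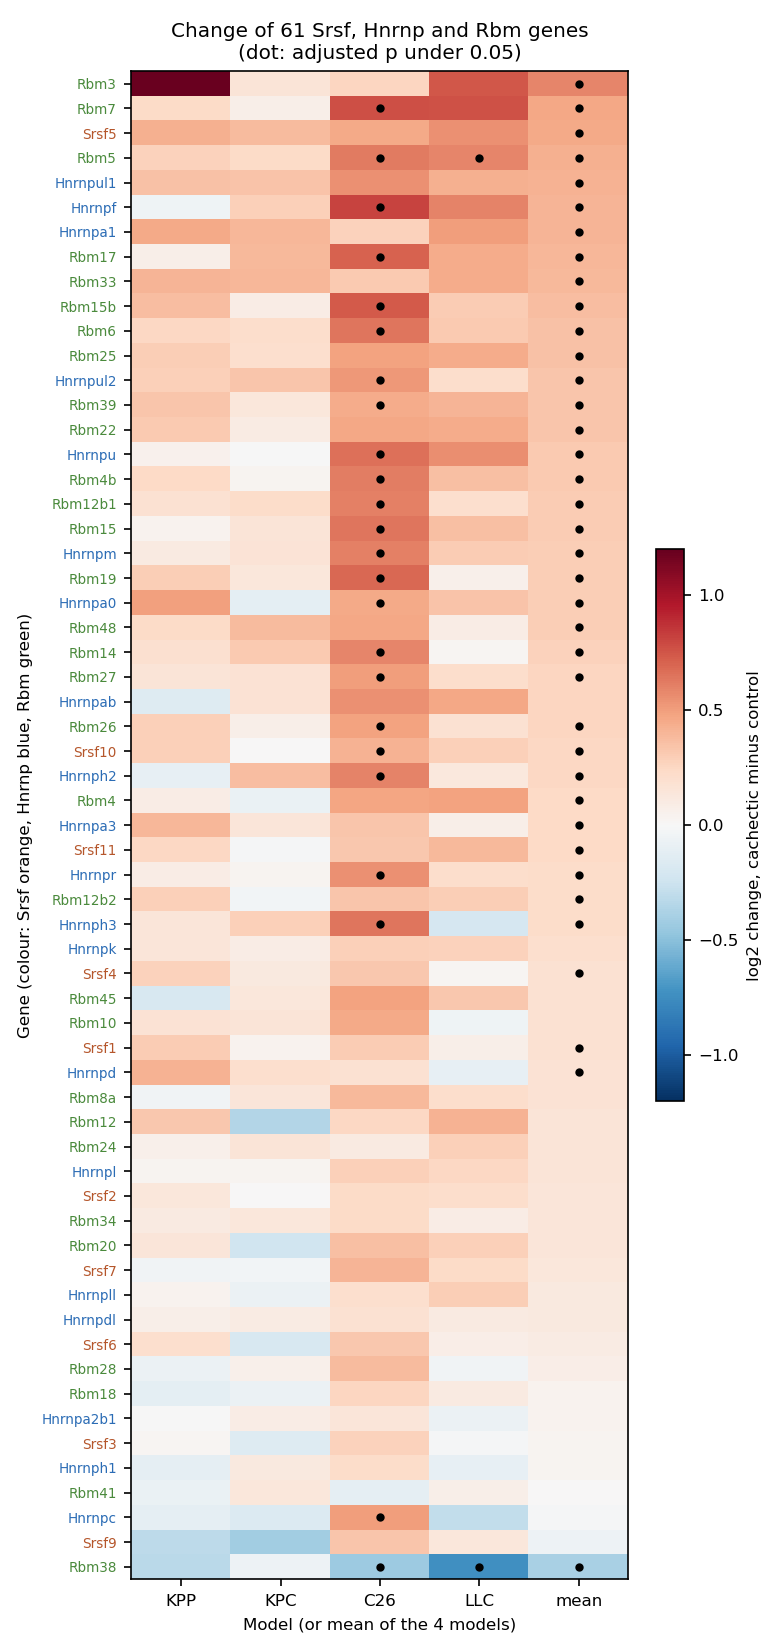
Change of each gene (rows) in KPP, KPC, C26 and LLC and in the mean of the 4 models, as log2 of cachectic minus control (colour scale), with a dot where limma's adjusted p was under 0.05. Rbm3 heads the order by mean change, Rbm38 stands at its foot with a negative change in every column, and the dots fall mainly in the C26 and mean columns.

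Rbm38 was the only gene of the 61 to fall in the mean. It stood at 78.1 and 70.4 CPM in KPP cachectic muscle, against 87.1 and 98.1 in KPP controls. In KPC it stood at 65.6 and 82.6 in cachectic muscle, against 81.5 and 72.1 in controls. The groups overlapped in KPC and not in KPP, with the cachectic libraries lower in KPP. In C26 it stood at 81.7 and 75.6 in cachectic muscle, against 102 and 111 in controls. In LLC it stood at 64.4 and 62.4 in cachectic muscle, against 102 and 109 in controls. The cachectic libraries were lower without overlap in both C26 and LLC. Its log2 change was -0.73 ± 0.14 (SE) in LLC (limma, adjusted p = 0.0165), a fold of 0.602, and -0.44 ± 0.14 in C26 (adjusted p = 0.0346), and neither -0.32 ± 0.14 in KPP (adjusted p = 0.205) nor -0.06 ± 0.14 in KPC (adjusted p = 0.913) passed. The mean change was -0.39 ± 0.07 (adjusted p = 0.00177), and it was called at each of 10 settings and in each of 16 fits without 1 library. The C26 call was lost when any of its 4 libraries was left out, and the LLC call when either control or cachectic replicate 1 was left out. Rbm38 shares exon bases with the antisense genes Gm20490 and Gm14453, which are not listed, and the sources used here do not say whether counting used strand.

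Among the SR protein genes, Srsf5, Srsf10, Srsf11, Srsf4 and Srsf1 rose in the mean. Srsf5 stood at 196 and 190 CPM in KPP cachectic muscle against 122 and 168 in KPP controls, and at 184 and 116 in KPC cachectic muscle against 111 and 114 in KPC controls. It stood at 162 and 172 in C26 cachectic muscle against 118 and 126 in C26 controls, and at 165 and 148 in LLC cachectic muscle against 102 and 112 in LLC controls. Both cachectic libraries were above both controls in every model, although KPC cachectic replicate 2 was only just above. The mean log2 change of Srsf5 was 0.45 ± 0.10 (limma, adjusted p = 0.00427), with 0.43, 0.38, 0.46 and 0.55 in KPP, KPC, C26 and LLC, none of which passed within its model. Srsf10, an SR-like protein that represses splicing when dephosphorylated, rose by 0.25 ± 0.06 in the mean (adjusted p = 0.00764). Srsf11 changed by 0.24 ± 0.07 (adjusted p = 0.0143). Srsf1, the founding SR protein, was at the edge of the threshold at 0.18 ± 0.07 (adjusted p = 0.0498), and its call held in 3 of 16 fits without 1 library; Srsf4 held in 4.

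Srsf2, Srsf3, Srsf6, Srsf7 and Srsf9 did not pass in the mean. The change of Srsf3, an SR protein that also takes part in the export of messages, was 0.03, with 58.4 and 41.9 CPM in KPP cachectic muscle against 45.8 and 51.5 in KPP controls. Srsf9 had a change of -0.31 in KPP and -0.41 in KPC but 0.33 in C26 and 0.14 in LLC, and its F test between the 4 models gave an unadjusted p of 0.0108 and an adjusted p of 0.206 (limma). Its values were low, at 4.91 and 5.83 CPM in KPC cachectic muscle against 7.20 and 7.08 in KPC controls.

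The 12 Hnrnp genes that rose in the mean were Hnrnpa0, Hnrnpul2, Hnrnpa1, Hnrnpul1, Hnrnpa3, Hnrnpu, Hnrnpm, Hnrnpf, Hnrnph3, Hnrnph2, Hnrnpd and Hnrnpr. Hnrnpa1, which represses exons and packages messages, stood at 102 and 94.0 CPM in KPP cachectic muscle against 63.6 and 80.7 in KPP controls, and at 93.6 and 63.2 in KPC cachectic muscle against 58.7 and 57.9 in KPC controls. It stood at 77.7 and 92.2 in C26 cachectic muscle against 67.0 and 72.8 in C26 controls, and at 99.2 and 80.4 in LLC cachectic muscle against 59.0 and 67.1 in LLC controls. Cachectic libraries were higher without overlap in all 4 models. Its mean log2 change was 0.41 ± 0.09 (limma, adjusted p = 0.00590). Hnrnpul1 (0.42 ± 0.10, adjusted p = 0.00835) and Hnrnpul2 (0.34 ± 0.07, adjusted p = 0.00466), relatives of Hnrnpu, had positive changes in all 4 models. Hnrnpa0, a binder of AU-rich elements, rose by 0.29 ± 0.06 (adjusted p = 0.00351), with changes of 0.50 in KPP, -0.12 in KPC, 0.45 in C26 and 0.34 in LLC. Hnrnpd, which promotes the decay of AU-rich messages, had changes of 0.42 in KPP, 0.20 in KPC, 0.19 in C26 and -0.10 in LLC; its mean call held in 5 of 16 fits without 1 library and was lost under all 3 scalings. The call of Hnrnpr held in 4 of 16 and was lost under the same scalings and without the trend. The mean calls of Hnrnph2 and Hnrnph3 held in 7 and 9 of 16 and were also lost under all 3 scalings. That of Hnrnpm held in 9 of 16 and was lost under quantile normalization, and that of Hnrnpf held in 11 of 16. Hnrnpm shares 1169 exon bases with the listed gene March2 on the same strand, and how reads were split between them is uncertain.

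Several of the most abundant hnRNP genes did not pass. Hnrnpa2b1 stood at 244 and 252 CPM in KPP cachectic muscle against 222 and 278 in KPP controls, and its mean log2 change was 0.04. Hnrnph1 had 0.03, Hnrnpl, a regulator of exons with CA repeats, 0.15 (limma, adjusted p = 0.100) and Hnrnpk, a poly(C)-binding protein, 0.20 (adjusted p = 0.0616). Hnrnpc, which binds uridine tracts, differed in sign between models and had a mean change of -0.02 ± 0.06. It stood at 47.3 and 41.0 in C26 cachectic muscle against 30.8 and 31.3 in C26 controls, and at 28.5 and 31.3 in LLC cachectic muscle against 35.7 and 37.5 in LLC controls. The C26 cachectic libraries were both higher and the LLC cachectic libraries both lower than their controls. Hnrnpa1, Hnrnpa3 and Hnrnpa2b1 have processed pseudogenes, so reads they share with near-identical copies are uncertain.

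The Rbm genes that rose in the mean with the smallest p were Rbm33, Rbm5, Rbm15b, Rbm39, Rbm6, Rbm4b and Rbm25. Rbm5, which regulates exons of apoptosis genes in human cells, stood at 90.7 and 89.9 CPM in KPP cachectic muscle against 76.2 and 73.0 in KPP controls, and at 86.6 and 62.2 in KPC cachectic muscle against 62.6 and 62.5 in KPC controls. It stood at 101.3 and 119.9 in C26 cachectic muscle against 70.1 and 72.9 in C26 controls, and at 97.7 and 78.6 in LLC cachectic muscle against 57.1 and 59.4 in LLC controls. Groups overlapped in KPC, where cachectic replicate 2 was at the level of the controls, and not in the other models. Its mean log2 change was 0.43 ± 0.08 (limma, adjusted p = 0.00209). Its neighbour on chromosome 9 and close relative Rbm6 rose by 0.36 ± 0.09 (adjusted p = 0.00818). Rbm39, a splicing coactivator, rose by 0.33 ± 0.07 (adjusted p = 0.00498), and Rbm25, which binds exonic enhancers, by 0.35 ± 0.09 (adjusted p = 0.00980).

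Rbm33, an RNA-binding protein that acts in the export of messages in human cells, changed by 0.40 in KPP, 0.40 in KPC, 0.31 in C26 and 0.44 in LLC, and by 0.39 ± 0.07 in the mean (limma, adjusted p = 0.00202). Rbm15 and Rbm15b, which recruit the m6A methyltransferase to messages, rose by 0.30 ± 0.09 (adjusted p = 0.0151) and 0.37 ± 0.07 (adjusted p = 0.00292). Rbm15b shares exon bases with Manf and Dcaf1. Rbm7, a subunit of the nuclear exosome targeting complex, had changes of 0.78 in C26 and 0.77 in LLC beside 0.23 in KPP and 0.07 in KPC, and rose by 0.46 ± 0.12 in the mean (adjusted p = 0.0113). Rbm4 (0.24 ± 0.09, adjusted p = 0.0421) and Rbm4b (0.31 ± 0.08, adjusted p = 0.00859) are close copies of each other, as are Rbm12b1 and Rbm12b2, and how reads were split between copies is uncertain. Rbm4 also shares exon bases with Gm21992 on the same strand, which is not listed, and Rbm4b with the listed antisense gene Gm37206. The call of Rbm4 held in 4 of 16 fits without 1 library and was lost under all 3 scalings, whereas that of Rbm4b held in each.

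Rbm3, a protein induced by mild cold, had the largest mean change of the 61 genes and the widest spread. It stood at 111 and 87.6 CPM in KPP cachectic muscle, against 38.4 and 48.9 in KPP controls. In LLC it stood at 109 and 37.3 in cachectic muscle, against 33.8 and 43.0 in controls. KPP groups did not overlap, whereas LLC cachectic replicate 2 lay within its controls. In KPC it stood at 52.5 and 36.7 in cachectic muscle against 42.6 and 36.6 in controls, and in C26 at 49.1 and 49.98 in cachectic muscle against 40.0 and 43.1 in controls. Its log2 changes were 1.19 ± 0.37 in KPP, 0.15 ± 0.37 in KPC, 0.25 ± 0.37 in C26 and 0.74 ± 0.37 in LLC; none passed within its model (limma, adjusted p = 0.0961 in KPP), and the mean of 0.58 ± 0.18 did (adjusted p = 0.0236), in 11 of 16 fits without 1 library. Cirbp, the other cold-inducible RNA-binding protein and not one of the 61, stood at 32.2 and 29.8 in KPP cachectic muscle against 14.5 and 20.0 in KPP controls, and rose by 0.83 ± 0.15 in the mean (adjusted p = 0.00217).

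The muscle splicing regulators Rbm20 and Rbm24 did not pass in the mean. Rbm20 stood at 184 and 141 CPM in KPP cachectic muscle against 161 and 131 in KPP controls, at 118 and 113 in KPC cachectic muscle against 143 and 130 in KPC controls, at 199.97 and 211 in C26 cachectic muscle against 159 and 161 in C26 controls, and at 207 and 114 in LLC cachectic muscle against 133 and 118 in LLC controls. Cachectic libraries were higher without overlap in C26, lower without overlap in KPC, and overlapped controls in KPP and LLC. The mean changes were 0.14 ± 0.11 for Rbm20 (limma, adjusted p = 0.328) and 0.15 ± 0.08 for Rbm24 (adjusted p = 0.137). The exon junction subunit Rbm8a (0.17, adjusted p = 0.151) and the splicing regulator Rbm10 (0.18, adjusted p = 0.130) did not pass either.

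**Figure D3:**
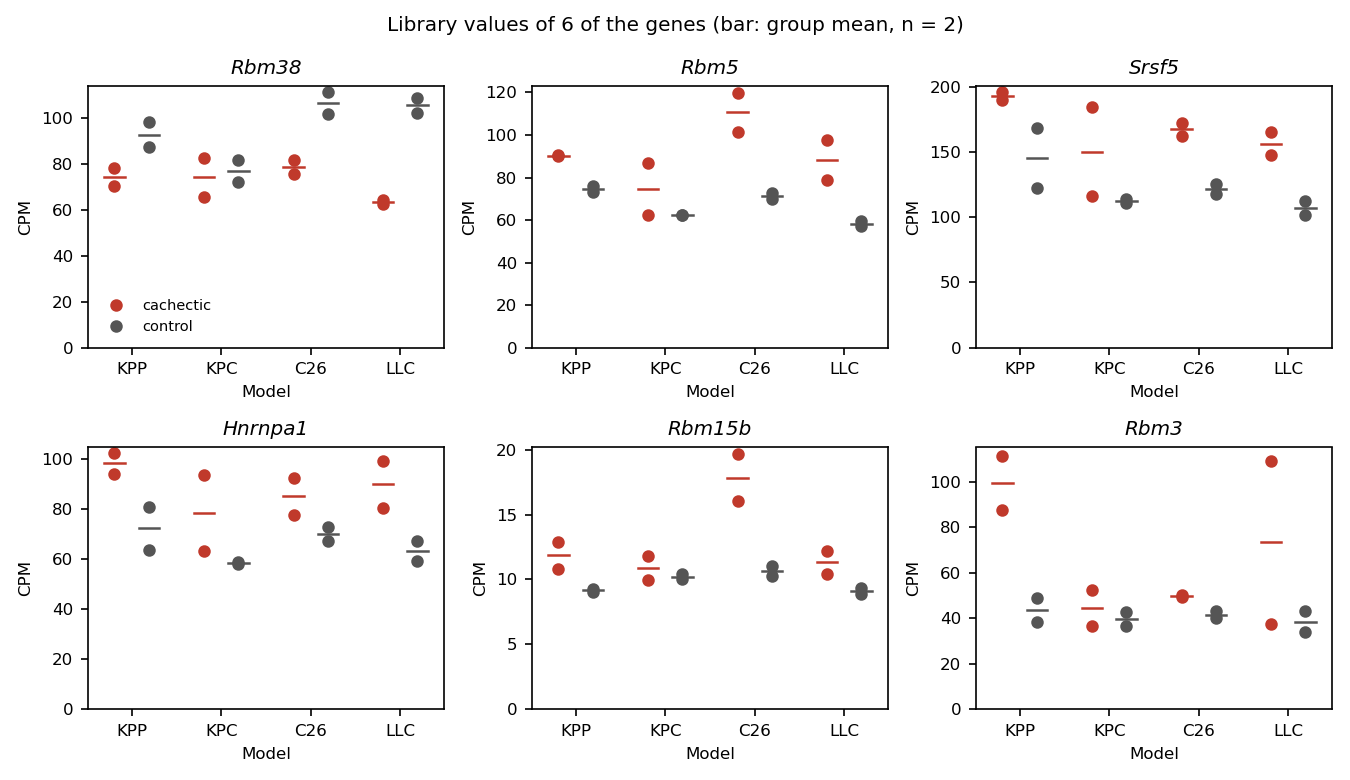
CPM of Rbm38, Rbm5, Srsf5, Hnrnpa1, Rbm15b and Rbm3 in each library, cachectic (red) left of control (grey) for each model; points are libraries and bars are means of 2. Rbm38 is lower in cachectic muscle in KPP, C26 and LLC, Srsf5 and Hnrnpa1 are higher in all 4 models, and the 2 LLC cachectic libraries of Rbm3 stand at 109 and 37.3.

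In C26, 23 of the 61 genes rose (37.7%), against 23.2% of all listed genes, and 1 fell (Rbm38), against 5.12%. Of these, 9 of 20 Hnrnp, 13 of 31 Rbm and 1 of 10 Srsf genes (Srsf10) rose, and the median log2 change was 0.45 over the 61 genes and 0.28 over all listed genes. Cachectic libraries were both higher than both controls for 58 of the 61, against 59.6% of all listed genes, and both lower for 1, against 16.9%. The gene with the smallest p was Rbm15b, which stood at 16.1 and 19.6 CPM in C26 cachectic muscle against 11.02 and 10.3 in C26 controls (0.74 ± 0.15; limma, adjusted p = 0.00802). Hnrnph3 stood at 26.4 and 23.9 in C26 cachectic muscle against 15.4 and 16.8 in C26 controls (0.64 ± 0.14, adjusted p = 0.00957). Rbm19, a ribosome biogenesis factor, stood at 21.8 and 19.3 in C26 cachectic muscle against 12.5 and 13.0 in C26 controls (0.69 ± 0.16, adjusted p = 0.0137).

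Further genes that rose in C26 were Hnrnpc, Rbm4b, Rbm5, Rbm15 and Hnrnpa0, and, with the largest change, Hnrnpf, which binds G-rich RNA. Hnrnpf stood at 67.0 and 79.9 CPM in C26 cachectic muscle against 41.6 and 41.7 in C26 controls (0.81 ± 0.26; limma, adjusted p = 0.0367). Hnrnpu, a nuclear scaffold protein, stood at 56.2 and 75.7 in C26 cachectic muscle against 44.4 and 38.4 in C26 controls (0.66 ± 0.19, adjusted p = 0.0253); its exons overlap those of Cox20. The C26 counts moved with the scaling between libraries. With libraries centred on their own medians, Hnrnph3, Rbm15b and Rbm19 were the 3 that rose and Rbm38 still fell, against 6.99% and 9.25% of all genes. The C26 call of Rbm38 and most calls of risen genes were lost without any 1 of the 4 C26 libraries. Summed macrophage markers (9 of 9 listed) were 255 to 264 CPM in C26 cachectic muscle against 95.3 to 115 in C26 controls, and endothelial markers (9 of 9) 733 to 747 in C26 cachectic muscle against 485 to 508 in C26 controls; their part in these changes was not tested.

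**Figure D4:**
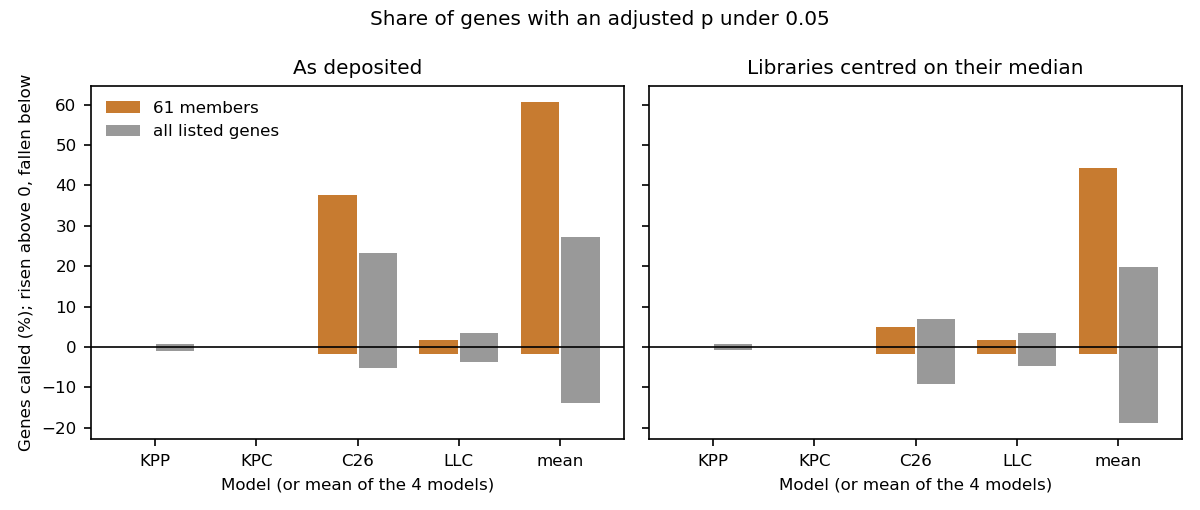
Percent of the 61 genes (orange) and of all listed genes (grey) with an adjusted p under 0.05, risen above and fallen below 0, for each model and the mean, on the deposited values (left) and with libraries centred on their medians (right). In the mean, 60.7% of the 61 genes rose on the deposited values; in C26 their share of 37.7% drops to 3 of 61 genes after centring.

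In LLC, Rbm5 rose and Rbm38 fell, which is 1 of 61 genes in each direction, against 3.42% of all listed genes that rose and 3.66% that fell. The change of Rbm5 was 0.59 ± 0.16 (limma, adjusted p = 0.0453), a fold of 1.51. The median log2 change was 0.25 over the 61 genes and 0.10 over all listed genes, and cachectic libraries were both higher than both controls for 30 genes and both lower for 4, against 33.8% and 23.6% of all listed genes. The 2 cachectic libraries differed: against the LLC control mean, 54 of the 61 genes were positive in replicate 1, with a median of 0.40, and 38 in replicate 2, with a median of 0.05. Of all listed genes, 60.4% were positive in replicate 1, with a median of 0.15, and 52.3% in replicate 2, with a median of 0.02. With replicate 1 as the only cachectic library, 25 genes rose and 2 fell, against 20.1% and 10.8% of all listed genes in that fit, among them Rbm3 (1.52 ± 0.23, adjusted p = 0.00116), Hnrnpf (1.07 ± 0.21, adjusted p = 0.00403), Hnrnpab (0.97 ± 0.18, adjusted p = 0.00295) and Rbm24 (0.53 ± 0.15, adjusted p = 0.0196); that fit assumes that the lone library varies as the other groups do. The LLC calls of Rbm5 and Rbm38 were both lost without LLC cachectic replicate 1 or without either LLC control. The share of all listed genes called in those fits is not given here. Erythroid markers (6 of 6 listed) summed to 1603 to 3296 CPM in LLC cachectic muscle against 144 to 164 in LLC controls, and their part in these values was not tested.

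In KPP, limma called 0 of the 61 genes in either direction, against 0.707% of all listed genes that rose and 1.07% that fell; at an unadjusted p under 0.05, 11 were positive and 1 negative, against 9.75% and 11.3% of all listed genes. Cachectic libraries were both higher than both controls for 31 genes, against 28.9% of all listed genes, and both lower for 5, against 29.7%. The median log2 change was 0.16 over the 61 genes and 0.0040 over all listed genes. Hnrnpa0 had the smallest p, at 20.01 and 20.98 CPM in KPP cachectic muscle against 15.4 and 13.7 in KPP controls (0.50 ± 0.12, adjusted p = 0.0556). Hnrnpd stood at 34.7 and 34.0 in KPP cachectic muscle against 25.6 and 25.8 in KPP controls (0.42 ± 0.12, adjusted p = 0.0818).

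In KPC, limma also called 0 of the 61 genes, and 0% of all listed genes in either direction; at an unadjusted p under 0.05, 3 were positive (Rbm33, Hnrnpul2 and Hnrnph2) and 1 negative (Srsf9), against 3.61% and 5% of all listed genes. Cachectic libraries were both higher than both controls for 9 genes, against 15.8% of all listed genes, and both lower for 9, against 22.0%. Against the KPC control mean, 51 of the 61 genes were positive in cachectic replicate 1, with a median of 0.29, and 16 in replicate 2, with a median of -0.05. Of all listed genes, 58.1% were positive in replicate 1, with a median of 0.09, and 37.4% in replicate 2, with a median of -0.05. With libraries centred on their own medians, 49 of the 61 were positive in replicate 1 and 31 in replicate 2, against 53.1% and 51.1% of all listed genes. Rbm33 stood at 67.2 and 50.5 CPM in KPC cachectic muscle against 43.2 and 45.2 in KPC controls. Without KPC cachectic replicate 2, under the same assumption for a lone library, 5 genes rose, against 4.03% of all listed genes in that fit: Srsf5 (0.71 ± 0.17, adjusted p = 0.0298), Rbm48 (0.70 ± 0.19, adjusted p = 0.0438), Hnrnpa1 (0.68 ± 0.18, adjusted p = 0.0451), Hnrnph2 (0.62 ± 0.16, adjusted p = 0.0360) and Rbm33 (0.60 ± 0.14, adjusted p = 0.0236).

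**Figure D5:**
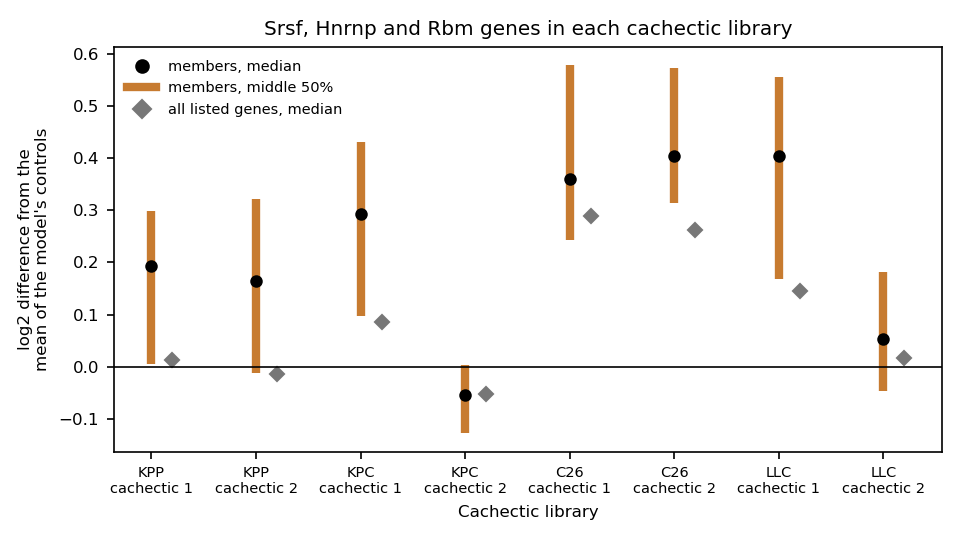
Log2 difference of the 61 genes in each cachectic library from the mean of the model's controls; black points are medians, orange bars span the middle 50% of the genes, and grey diamonds are medians of all listed genes. KPC cachectic replicate 2 has a median of -0.05 and LLC cachectic replicate 2 of 0.05, beside 0.29 and 0.40 for their replicates.

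Between the models, limma's F test called 0 of the 61 genes, where 0.116% of listed genes were called, and 7 had an unadjusted p under 0.05, against 15.9% of listed genes. Hnrnpc had the smallest p (adjusted p = 0.131), followed by Hnrnph3 (0.183), Srsf9 (0.206), Hnrnpa0 (0.214) and Rbm38 (0.269). The pairwise differences also called 0 of the 61 genes, where 0.299% of listed genes were called for C26 minus KPP, 0.0582% for C26 minus KPC, 0.116% for C26 minus LLC, 0.0333% for LLC minus KPP, 0% for LLC minus KPC and 0.0250% for KPP minus KPC. Unadjusted p-values under 0.05 numbered 8, 12, 3, 1, 6 and 3 in the same order, against 20.6%, 15.7%, 13.7%, 10.2%, 8.35% and 6.18% of listed genes. The C26 change of Hnrnpc exceeded that in LLC by 0.80 ± 0.16 (adjusted p = 0.0766) and that in KPP by 0.61 ± 0.16 (adjusted p = 0.0927). The calls in C26 and LLC are therefore not shown to differ from the changes in KPP and KPC. Without LLC cachectic replicate 2, the F test called 4 of the 61 genes, against 11.7% of listed genes in that fit.

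Summed over the 61 genes, the level was 2658 to 3687 CPM in cachectic libraries (median 3488) against 2584 to 3266 in control libraries (median 2776). The ranges overlapped. Hnrnp genes summed to 1197 to 1598 in cachectic against 1136 to 1510 in control libraries, Rbm genes to 1015 to 1514 against 1033 to 1192, and Srsf genes to 417 to 621 against 387 to 564.

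Genes around the same machinery were counted from lists, each gene by the same limma test. Of 10 genes for kinases of SR proteins and a phosphatase, 5 rose and 0 fell in the mean of the 4 models. Clk1 and Clk4, kinases that release SR proteins from nuclear speckles, had mean changes of 0.58 ± 0.12 (adjusted p = 0.00316) and 0.52 ± 0.10 (adjusted p = 0.00292). Clk4 also rose in LLC, at 68.8 and 57.8 CPM in LLC cachectic muscle against 36.6 and 36.8 in LLC controls (0.78 ± 0.21, adjusted p = 0.0431). Of 38 SR-like and related splicing regulators, 0 fell and 30 rose, among them the speckle proteins Srrm2 (0.54 ± 0.10, adjusted p = 0.00187) and Srrm1 (0.52 ± 0.10, adjusted p = 0.00210).

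Of 70 core spliceosome genes, 29 rose and 2 fell in the mean, led by the branch point protein Sf1 (0.42 ± 0.07; limma, adjusted p = 0.00146), while Zmat2 (-0.25) and Isy1 (-0.19) fell. Of 16 listed genes of the exon junction complex and nonsense-mediated decay, 8 rose and 0 fell, and of 6 nuclear import genes 1 (Kpnb1) rose. The shares of all listed genes called in the mean, 27.3% risen and 13.8% fallen, stand beside each of these counts. Of 9 listed splicing regulators of muscle outside the 61 genes, 4 rose and 1 fell. Rbfox1, which binds UGCAUG and promotes muscle exons, stood at 277 and 297 CPM in C26 cachectic muscle against 179 and 164 in C26 controls, and rose by 0.46 ± 0.11 in the mean (adjusted p = 0.00613). Msi2, an RNA-binding regulator of translation and exons, stood at 138 and 159 in LLC cachectic muscle against 222 and 219.7 in LLC controls and had a mean change of -0.40 ± 0.08 (adjusted p = 0.00326). Among 6 listed nuclear noncoding RNAs, a check on nuclear RNA content, 3 rose in the mean (Neat1, Snhg1 and Kcnq1ot1), and the part of nuclear RNA content in the changes of the 61 genes was not tested. Gene-level values do not separate isoforms, so they hold no measure of splicing itself.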

How the data were processed

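The authors deposited 1 table of log2 values for 16 libraries of mouse tibialis anterior; featureCounts 1.4.5, limma and the GRCm38 build are named in the submitters' processing notes, and the name of the deposited table points to TopHat as the aligner. Its version, the annotation, the strand handling and the low-value filter are given in no source used here. The values were log2 reads per 1000000 with 0.5 reads added: whole reads were recovered for 100% of values (tolerance 1e-04). No scaling beyond the library total was applied, so a change is relative to that total.

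The 8 groups were fitted together in limma 3.58.1 (R 4.3.3), a mean for each, with a trend on expression and a spread shared over groups; tests were two-sided and p-values were adjusted over all 12021 genes by the Benjamini-Hochberg method, with calls at an adjusted p under 0.05. The median SE of a log2 change of the 61 genes was 0.160 within a model. Unless stated, values are log2 changes ± SE with n = 2 per group, and CPM were computed from the recovered reads. RPKM used merged exons of GENCODE basic transcripts. Motifs were searched in RefSeq windows. The code was tested on simulated data.

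The symbol rule and the lists were chosen with earlier results of these data known. Named were the up to 8 called genes per direction and comparison with the smallest p, the leading genes of the F tests, and 24 genes whatever their values, and not all are printed. In 29 of the 61 genes, exon bases are shared with another annotated gene, in 14 with another listed gene. Alternatives were 3 scalings, a filter, no trend, robust variances, voom weights, another added count, a replicate block, 4 libraries only and libraries left out.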

Additional observations from a re-analysis of the deposited data

How the results depend on the processing

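Counts of the 61 genes called by limma depended most on scaling and on single libraries, and no direction of a called change reversed. In C26, 23 genes rose (23.2% of all listed genes), against 3 after centring on library medians (6.99% of all), 5 after quantile normalization (7.95%), 1 after scaling by the median gene-wise difference (6.28%) and 40 in a fit of its 4 libraries only (34.5%); without 1 library 0 to 4 rose (1.19% to 8.20% of all) and 0 to 0 fell, against 1 fallen. In KPP, 0 genes rose, against 1 after quantile normalization (1.14% of all) and 2 in a fit of 4 libraries (4.11%). In KPC, 0 rose, and this count moved when KPC cachectic replicate 2 was left out. In LLC, 1 rose and 1 fell; 0 rose after quantile normalization (3.24% of all) or without the trend (2.44%), 0 rose and 0 fell in a fit of 4 libraries (0% of all), and without 1 library 0 to 25 rose and 0 to 2 fell. Over the mean, 37 rose, against 24 to 45 without 1 library, and 1 fell throughout (1 to 1). Without 1 library, the F test between models called 0 to 4, C26 minus LLC 0 to 1, LLC minus KPP 0 to 3 and LLC minus KPC 0 to 2 genes, each against 0; the highest counts came without LLC cachectic replicate 2, where 11.7%, 1.61%, 10.5% and 7.83% of all listed genes were called, and for C26 minus LLC also without LLC cachectic replicate 1 (2.57%). Leaving out KPC cachectic replicate 2 and LLC cachectic replicate 1 together, chosen after the data were seen, the F test called 8, C26 minus KPP 11 and C26 minus LLC 11 genes, against 14.8%, 19.6% and 12.3% of all listed genes. The causes were not tested.

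Deviations of same-numbered libraries from their group means correlated at -0.04 to 0.09 within models. Over all pairs of groups the correlations ran from -0.16 to 0.29. With n = 2 per group, these values cannot show whether replicate numbers pair the samples. With a replicate block 24 genes rose in C26 and 35 in the mean, and the block moved no other count by over 1.5 times. Shares of all listed genes called in the block fit are not given here, so these counts describe only how far the calls held. With 2 libraries per group, the median SE of a log2 change of the 61 genes was 0.160 within a model and 0.0801 in the mean.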
